A study of Rattus norvegicus with 26 samples.

Results

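The genes described here are 35 genes that move calcium ions across membranes of the cell: voltage-gated calcium channels and their auxiliary subunits, release channels of the endoplasmic reticulum, the sensors and channels of store-operated entry, calcium pumps, sodium-calcium exchangers and the mitochondrial uniporter. They were a named list of gene symbols, and each was found on the array as exactly 1 probe set with a single gene symbol, among 14506 genes so represented. Of the 35 genes, 33 had a mean at or above 6.94 log2, the median of all probe sets, and were tested among 8485 genes. Itpr3, a receptor for inositol trisphosphate, and Atp2a3, a pump of the endoplasmic reticulum, lay below that level with means of 5.56 and 5.77 log2, and no test was made of them.

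Hippocampal RNA was measured with 1 array per rat, and all rats were males of the F344 strain at an age of 18 months. All rats ate a purified diet for 5 to 6 months, and the diets differed in vitamin D3: 100 IU per kg in the low diet (8 rats), 1000 IU per kg in the control diet (9 rats) and 10000 IU per kg in the high diet (9 rats). Rats lived in pairs, and the 26 came from 14 cages, of which 12 gave both cage mates. The study asked whether the amount of the vitamin alters the ageing hippocampus, and every group was a group of old males, so age and sex were not compared.

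Calcium enters neurons through voltage-gated channels at the cell surface and is released from the endoplasmic reticulum through ryanodine receptors and inositol trisphosphate receptors. Pumps driven by ATP and exchangers driven by the sodium gradient return it to the outside or to the store, and store-operated channels refill the store once it is empty. In hippocampal neurons of old rodents, larger calcium influx and larger calcium-dependent afterhyperpolarisations are well known, and vitamin D is best known for controlling calcium transport in gut, kidney and bone, through a nuclear receptor that acts as a transcription factor.

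The arrays were alike, with a mean correlation of each array with the others between 0.993 and 0.997. The hippocampal markers Prox1, Wfs1, Zbtb20 and Neurod6 had means of 10.67, 12.04, 11.97 and 11.94 log2, and 8 of 10 listed markers of hippocampal fields passed the level filter. The arrays of low-diet rat 7, control rat 17 and high-diet rat 19 had the lowest quality weights of the 26, and values of the calcium genes often stood apart in them. In these rats 8, 15 and 10 of the 33 calcium genes lay over 3 SD from the other rats of their diet, against 8.97%, 10.85% and 8.25% of all tested genes. In rats 17 and 19 the mean of the hippocampal field markers was lower than in the other rats of their diet, by -0.25 and -0.32 log2, and the mean of 3 thalamic markers was higher, by +0.28 and +0.32 log2. Differences of the genes described in full that moved by over 1.5 times or changed sign without these 3 rats are given both ways.

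Across the 3 diets, 0 of the 33 calcium genes passed the threshold, an adjusted p under 0.17, against 0% of all tested genes. This held for limma's moderated F-test and for each of its 3 contrasts, and a test without moderation also called 0. In the F-test 1 gene, Ryr3, had an unadjusted p under 0.05, against 4.62% of all tested genes, and its adjusted p was 0.998. The 95% interval of the difference between high and low lay within 1.2-fold either way for 30 of the 33 genes (90.9%), the exceptions being Cacna1g, Atp2b4 and Slc8a3. The share over all tested genes was higher, at 97.9%. Against the control diet it did so for 31 genes on the high diet and 31 on the low diet (93.9% each, against 98.5% and 98.7% of all tested genes). Differences of more than that size were thus outside the intervals of most of the genes.

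**Figure D1:**
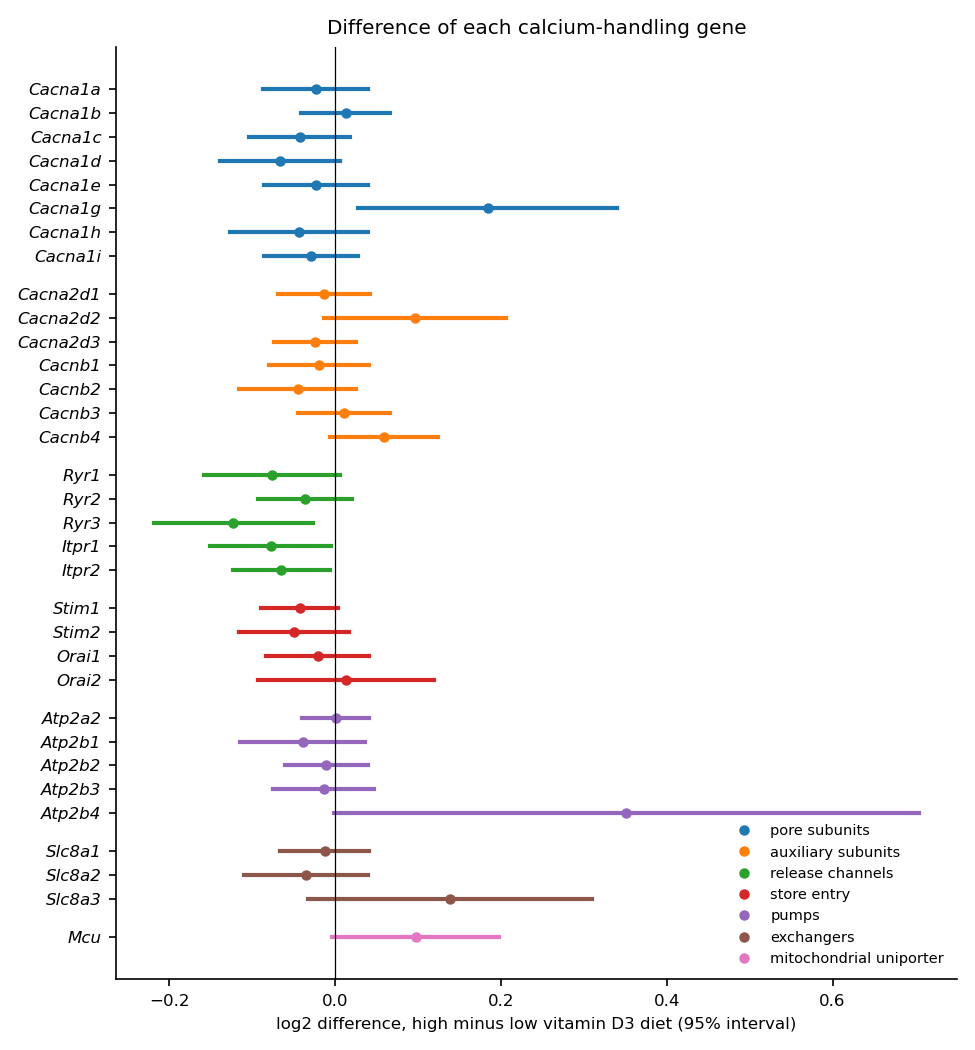
Difference in log2 intensity between the high and low vitamin D3 diets for each of the 33 tested genes (horizontal axis), with its 95% interval from limma, grouped by role from top to bottom. The 5 release channels all lie left of 0, and Cacna1g, Atp2b4 and Slc8a3 have intervals that reach beyond 1.2-fold on the higher side.

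Between the high and low diets, 23 of the 33 genes had a lower mean on the high diet, against 44.8% of all tested genes, and the median difference was -0.023 log2, against +0.0053 over all tested genes. The high diet also gave a lower mean than the control diet for 23 genes, against 49.4%, with a median of -0.0087 log2. That count was 13 after each array was centred on its median, since 10 of these differences (Cacna1b, Cacna2d3, Cacnb2, Cacnb3, Cacnb4, Stim1, Stim2, Orai1, Atp2b1 and Atp2b2) were close to 0 and changed sign. Another scaling also turned the sign of Atp2a2 between high and low and of Cacna1a, Cacnb1 and Slc8a2 between low and control. On the low diet 12 genes had a lower mean than on the control diet, against 55.9%, with a median of +0.014 log2. The mean was highest on the low diet, intermediate on control and lowest on the high diet in 16 of 33 genes, against 17.7% of all tested genes. The opposite order was seen in 5 genes, against 24.2%. These 3 comparisons share their rats, so they are views of the same values. The genes also vary together from rat to rat, as described further on, so their count is not a count of independent genes.

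At an unadjusted p under 0.05, 3 genes were lower on the high than on the low diet (Ryr3, Itpr1 and Itpr2), against 2.72% of all tested genes, and 1 was higher (Cacna1g), against 4.5%. Between high and control there were 0, against 2.45% of all tested genes for lower and 2.18% for higher levels. Between low and control 1 gene was lower (Cacnb4), against 1.61%, and 0 were higher, against 0.66%. The members' counts in single comparisons therefore came to between 0 and 4 of 33.

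**Figure D2:**
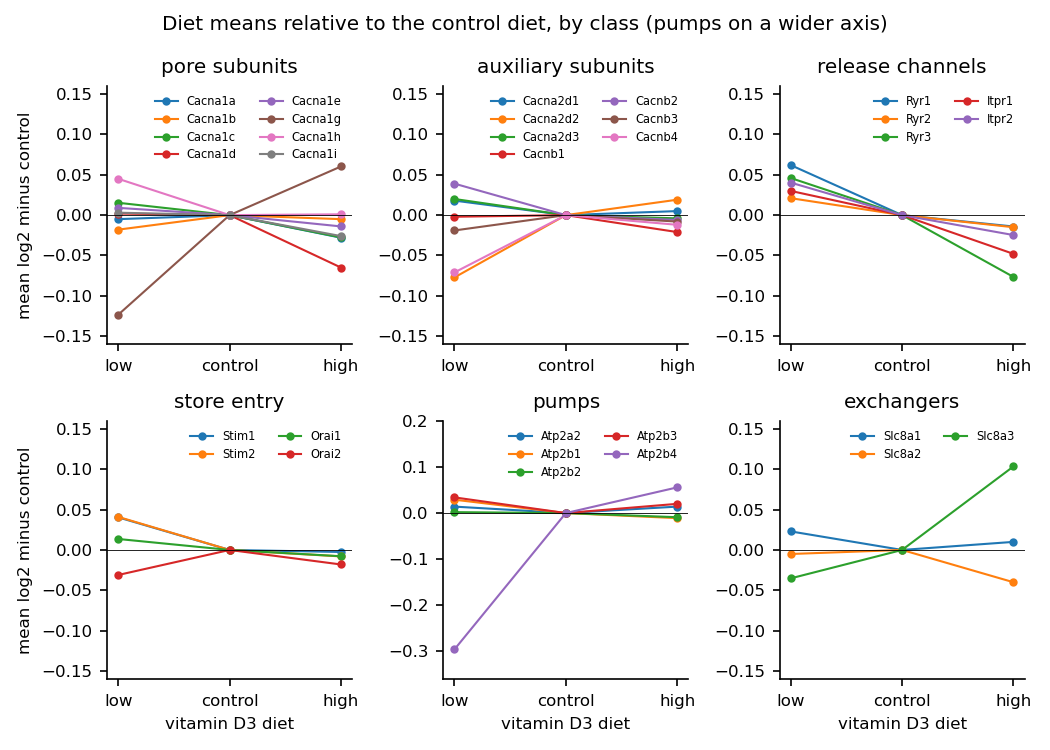
Mean log2 intensity on each diet minus the mean on the control diet (vertical axis, wider for the pumps), by role, with low, control and high from left to right and 1 line per gene. The lines of all 5 release channels slope down from left to right, the lines of Atp2b4, Cacna1g and Slc8a3 slope up, and most other lines stay within 0.05 of 0; Mcu is not drawn.

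Among the pore subunits of voltage-gated channels, 6 of 8 had a lower mean on the high than on the low diet, and the median difference was -0.027 log2. Cacna1a, the pore of P/Q-type channels, differed by -0.024, and Cacna1b, the pore of N-type channels, by +0.013; these channels drive transmitter release. Cacna1c and Cacna1d, the L-type pores that carry much of the calcium current tied to ageing in hippocampal neurons, differed by -0.043 (SE 0.030) and -0.067 (SE 0.035). The L-type pores were thus no more than slightly lower on the high diet, and their adjusted p values in limma were 0.785 and 0.701. Cacna1e, the R-type pore, differed by -0.023. The T-type pores Cacna1h and Cacna1i, which open near the resting potential, differed by -0.044 and -0.029. Against the control diet the high diet gave -0.028 for Cacna1a, -0.0049 for Cacna1b, -0.028 for Cacna1c, -0.065 for Cacna1d, -0.014 for Cacna1e, +0.0011 for Cacna1h and -0.026 for Cacna1i. The low diet gave -0.0048, -0.018, +0.015, +0.0018, +0.0097, +0.045 and +0.0032 log2 against control for the same genes.

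Cacna1g, the third T-type pore, was like Cacna1b higher on the high than on the low diet, and by more than the other pores differed. Its lowest, median and highest values were 8.59, 8.70 and 8.95 log2 on the low diet, 8.72, 8.76 and 9.35 on the control diet and 8.76, 8.89 and 9.29 on the high diet. The diets overlapped: 2 of 9 high-diet rats exceeded the highest low-diet value, and 9 of 9 exceeded the low-diet mean. The difference between high and low was +0.18 log2 (SE 0.076, a ratio of 1.14), with an unadjusted p of 0.0228 and an adjusted p of 0.680 in limma, and an exact permutation of the rats gave p = 0.0150. High differed from control by +0.060 and low from control by -0.12. The exact permutation tests given here use 24310 regroupings of 8 against 9 rats, are 2-sided and unadjusted, and treat cage mates as independent. The highest value on each diet belonged to rat 7, 17 or 19, and without these 3 rats the difference was +0.17 (SE 0.046, adjusted p = 0.407 in limma).

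Auxiliary subunits set how many channels reach the membrane and how they gate. Of 7, 4 had a lower mean on the high than on the low diet, with a median of -0.013 log2. Among the Cacna2d subunits, which sit outside the membrane and of which Cacna2d1 and Cacna2d2 bind gabapentin, Cacna2d1 differed by -0.013, Cacna2d2 by +0.096 (SE 0.054) and Cacna2d3 by -0.024. Among the cytoplasmic beta subunits, Cacnb1 differed by -0.019, Cacnb2 by -0.045 and Cacnb3 by +0.011. Between high and control the differences of these 6 genes lay between -0.021 (Cacnb1) and +0.019 (Cacna2d2). Between low and control they lay between -0.077 (Cacna2d2) and +0.039 (Cacnb2).

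Cacnb4, the beta subunit whose loss causes ataxia and seizures in lethargic mice, had the smallest p of the list between low and control. Its values, again as lowest, median and highest, were 10.87, 10.92 and 10.95 log2 on the low diet, 10.91, 10.96 and 11.22 on the control diet and 10.90, 10.97 and 11.06 on the high diet. The low-diet rats lay in a narrow band at the bottom of the range, which 6 of 9 high-diet rats exceeded. The low diet differed from control by -0.070 (SE 0.032), with an unadjusted p of 0.0350 and an adjusted p of 0.9997 in limma, and an exact permutation p of 0.0155. Between high and low the difference was +0.059 (SE 0.032, adjusted p = 0.713 in limma), and between high and control -0.011. Without rat 17, whose value of 11.22 was the highest, the difference between low and control was -0.041, and the number of genes at an unadjusted p under 0.05 in that contrast was 0. Without rats 7, 17 and 19 the difference between low and control was -0.046 (SE 0.022) and that between high and control turned to +0.0069.

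All 5 tested release channels of the endoplasmic reticulum had their highest mean on the low diet and their lowest on the high diet. Their means on the control diet were intermediate. No other class had this order in every gene, but it was not limited to release channels. It was seen in 17.7% of all tested genes. Of the list, Cacna1c, Cacna1d, Cacna1e, Cacna1i, Cacna2d3, Cacnb2, Stim1, Stim2, Orai1, Atp2b1 and Atp2b2 had it too. Without rats 7, 17 and 19 all 5 release channels kept it. Atp2b1 and Atp2b2 then lost it, and Cacna1a, Cacna1h, Slc8a1 and Slc8a2 gained it. Ryr1 had the lowest mean of the 5, 7.26 log2, not far above the level filter of 6.94. No difference of the release channels changed sign under quantile normalization or centring on array medians. The median difference between high and low was -0.076 log2, and 0 of the 5 passed the adjusted threshold. The tissue was a bulk sample, in which fewer cells of a type and less RNA per cell cannot be told apart. Ryr1, the ryanodine receptor of skeletal muscle, differed by -0.076 (SE 0.040) between high and low, and Ryr2, the form of heart and much of the brain, by -0.036 (SE 0.027). Against control, the high diet differed by -0.014 for Ryr1 and -0.015 for Ryr2, and the low diet by +0.062 for Ryr1 and +0.021 for Ryr2.

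Ryr3, the ryanodine receptor form that in brain is prominent in hippocampus, had the smallest p of the list. Its lowest, median and highest values were 9.87, 10.06 and 10.18 log2 on the low diet, 9.71, 10.05 and 10.10 on the control diet and 9.77, 9.94 and 10.03 on the high diet. The ranges overlapped, with 9 of 9 high-diet rats below the low-diet mean and 2 of them under the lowest low-diet value. The high diet differed from low by -0.12 (SE 0.047, a ratio of 0.918), with an unadjusted p of 0.0137 and an adjusted p of 0.674 in limma, and an exact permutation p of 0.0103. High differed from control by -0.076 (SE 0.045) and low from control by +0.047 (SE 0.047). The lowest value on each diet was that of rat 7, 17 or 19, and without these rats the difference between high and low was -0.13 (SE 0.032, adjusted p = 0.263 in limma).

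Itpr1 is the main inositol trisphosphate receptor of neurons. It had lowest, median and highest values of 11.40, 11.50 and 11.59 log2 on the low diet, 11.38, 11.44 and 11.58 on the control diet and 11.20, 11.44 and 11.51 on the high diet. The diets overlapped widely, and the value of high-diet rat 19 was far below the others. High differed from low by -0.078 (SE 0.036, unadjusted p = 0.0368, adjusted p = 0.680 in limma; exact permutation p = 0.0369). High differed from control by -0.048 and low from control by +0.030. Without rat 19 the difference between high and low was -0.051 log2. With cage as a random block the unadjusted p of this difference was 0.0535, so that Itpr1 left the genes under 0.05, as it also did after centring on array medians (0.0608) and with array quality weights (0.0743).

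Itpr2 is a receptor of the same family that is prominent in astrocytes. It had lowest, median and highest values of 8.21, 8.31 and 8.37 log2 on the low diet, 8.20, 8.26 and 8.33 on the control diet and 8.14, 8.23 and 8.32 on the high diet. The groups overlapped, and 4 of 9 rats on the high diet were under the lowest low-diet value. High differed from low by -0.065 (SE 0.028, unadjusted p = 0.0301, adjusted p = 0.680 in limma; exact permutation p = 0.0454). High differed from control by -0.025 and low from control by +0.040. The unadjusted p between high and low was 0.0536 after centring and 0.0586 with array quality weights.

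**Figure D3:**
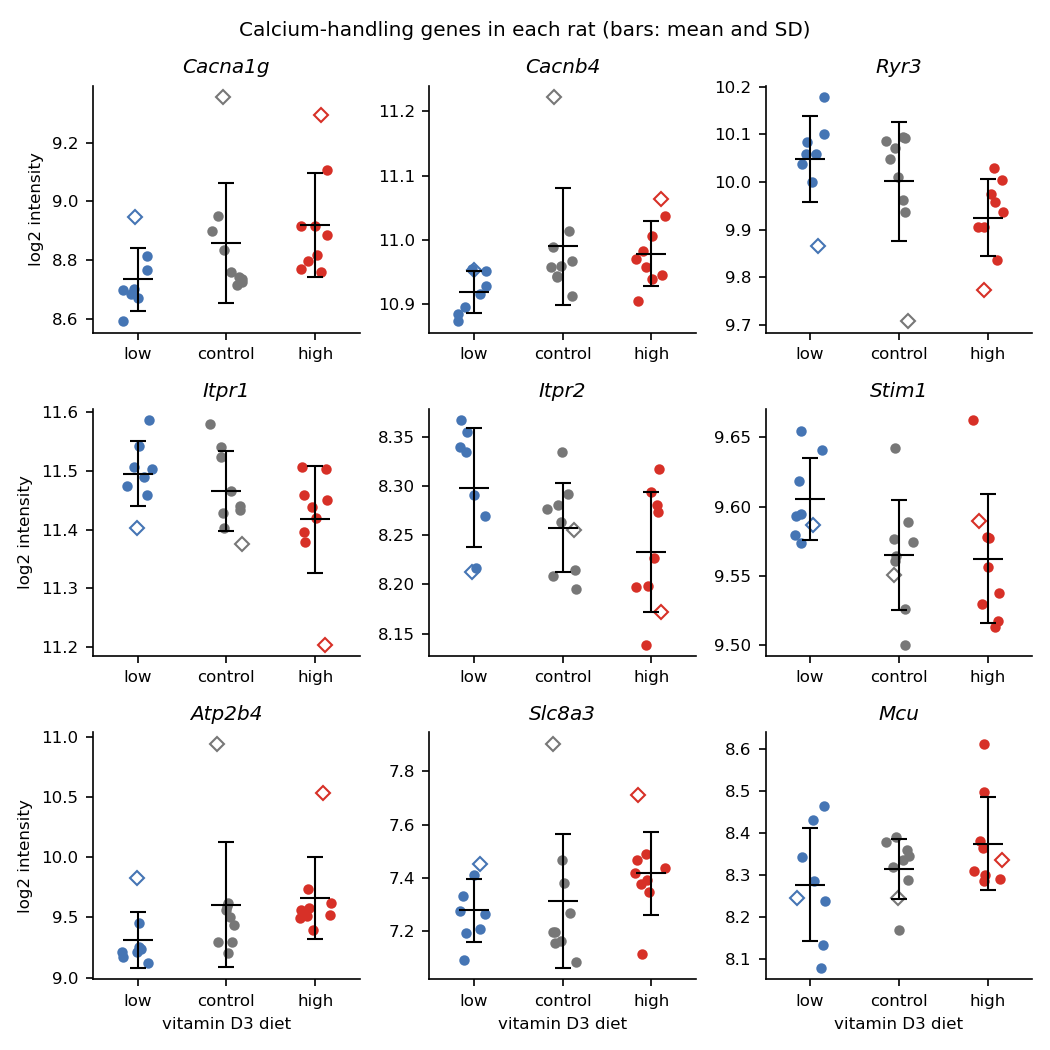
Log2 intensity of 9 calcium genes in each rat (vertical axis, a separate scale for each gene) on the low, control and high vitamin D3 diets from left to right; bars give the mean and SD, and open diamonds are rats 7, 17 and 19. The diets overlap in every panel, and the diamonds are the far values of Atp2b4, with 10.94 in control rat 17 and 10.54 in high-diet rat 19.

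The start regions of the 3 release channel genes with an unadjusted p under 0.05 are shown because these genes had the same order of diets. Each stretch is a RefSeq promoter of assembly GRCr8 with 300 bases, read 5′ to 3′ on the strand of the gene, and capitals mark the 50 bases from the annotated start onwards. RefSeq gives Ryr3 more than 1 start, so it has 2 stretches. The second Ryr3 start and the Itpr2 start lie well inside the RefSeq span of the gene, which for Itpr2 is chr4:180759325-181165361. No other start of Itpr2 was among the promoters searched.
Ryr3, chr3:120433416-120433715, minus strand: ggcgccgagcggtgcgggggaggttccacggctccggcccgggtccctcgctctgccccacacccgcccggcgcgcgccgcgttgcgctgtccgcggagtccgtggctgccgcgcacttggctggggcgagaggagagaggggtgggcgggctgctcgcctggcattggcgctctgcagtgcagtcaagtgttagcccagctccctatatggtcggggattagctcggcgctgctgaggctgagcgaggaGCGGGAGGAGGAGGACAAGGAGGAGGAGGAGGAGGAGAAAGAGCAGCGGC
Ryr3, chr3:120157522-120157821, minus strand: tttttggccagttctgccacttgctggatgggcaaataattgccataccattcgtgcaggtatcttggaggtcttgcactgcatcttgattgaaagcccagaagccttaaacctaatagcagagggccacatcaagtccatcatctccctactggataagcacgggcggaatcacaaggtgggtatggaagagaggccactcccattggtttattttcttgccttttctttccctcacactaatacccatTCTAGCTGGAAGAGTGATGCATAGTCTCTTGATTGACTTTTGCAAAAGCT
Itpr1, chr4:142743190-142743489, plus strand: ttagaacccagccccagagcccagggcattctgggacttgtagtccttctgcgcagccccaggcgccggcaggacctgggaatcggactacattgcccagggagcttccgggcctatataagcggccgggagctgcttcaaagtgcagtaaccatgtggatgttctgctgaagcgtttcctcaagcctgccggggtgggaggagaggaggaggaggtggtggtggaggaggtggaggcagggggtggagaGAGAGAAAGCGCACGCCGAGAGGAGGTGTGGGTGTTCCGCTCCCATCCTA
Itpr2, chr4:181134818-181135117, minus strand: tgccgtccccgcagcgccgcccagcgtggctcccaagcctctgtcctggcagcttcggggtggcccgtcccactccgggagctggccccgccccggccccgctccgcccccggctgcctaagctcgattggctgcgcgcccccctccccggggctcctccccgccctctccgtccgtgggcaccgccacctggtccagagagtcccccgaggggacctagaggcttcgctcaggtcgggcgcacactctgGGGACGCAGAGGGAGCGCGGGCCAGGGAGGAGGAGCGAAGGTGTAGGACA

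The vitamin D receptor, paired with a retinoid X receptor, is known to bind direct repeats of motifs such as AGGTCA, and GGGTCA and AGTTCA are known variants, with a spacer of 3 bases. These single motifs were searched on both strands of 31 promoters that RefSeq gives for 27 of the 35 genes. None of the 4 stretches above holds any of the 3 motifs. AGGTCA was found for Stim1 and Ryr2 (16.2% of all 33469 promoters hold it), GGGTCA for Atp2b2 and Cacnb3 (13.8%) and AGTTCA for Cacna1e (14.5%). A direct repeat of any of the 3 with that spacer was found in 0 of the 31 promoters, and in 0.0239% of all promoters for AGGTCA, 0% for GGGTCA and 0.00598% for AGTTCA. A match or its absence in these letters says nothing of binding. The promoters of the calcium genes had a median GC content of 72.7% and a median of 34 CpG, against 51.7% and 7 over all promoters. All promoters here means all 33469 entries, which were not limited to the tested genes, so the comparison is not with genes of like level.

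Store-operated entry is carried by Orai channels of the plasma membrane, which Stim proteins open when they sense that the store is empty. Of 4 genes, 3 had a lower mean on the high than on the low diet, with a median of -0.032 log2. Stim2, the sensor that responds to small falls of store calcium, differed by -0.050 (SE 0.032), the channel Orai1 by -0.021 and its relative Orai2 by +0.013. Between high and control Stim2 differed by -0.0088, Orai1 by -0.0078 and Orai2 by -0.018, and between low and control by +0.041, +0.014 and -0.031. Stim1, the other sensor, had the smallest F-test p of the class. Its lowest, median and highest values were 9.57, 9.59 and 9.655 log2 on the low diet, 9.50, 9.56 and 9.64 on the control diet and 9.51, 9.56 and 9.66 on the high diet. The diets overlapped, although 5 of 9 rats on the high diet were under the lowest low-diet value. High differed from low by -0.043 (SE 0.023, adjusted p = 0.701 in limma; exact permutation p = 0.0444) and low from control by +0.040 (SE 0.023), and high from control by -0.0025 (-0.0078 without rats 7, 17 and 19, +0.010 after centring). Its promoter is shown in 2 stretches of 60 bases because it was the only promoter of the list that holds AGGTCA more than once. Capitals mark the motif, on the minus strand at position -142 from the annotated start (so that its reverse complement is seen) and on the plus strand at position -32; the build is GRCr8.
Stim1, chr1:166068045-166068104, plus strand: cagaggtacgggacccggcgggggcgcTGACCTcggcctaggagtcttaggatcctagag
Stim1, chr1:166068155-166068214, plus strand: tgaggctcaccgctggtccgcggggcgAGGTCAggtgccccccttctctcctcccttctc

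Of the pumps, Atp2a2 fills the endoplasmic reticulum with calcium, and the Atp2b genes encode the pumps of the plasma membrane. Atp2a2 had one of the smallest spreads on the array, since 99.5% of tested genes had a larger SD within diets. It differed by +0.00040 between high and low, with an interval well within 1.2-fold, and by +0.014 from control on either the high or the low diet. Atp2b1, the widely expressed form, differed by -0.039 between high and low, Atp2b2 by -0.011 and Atp2b3 by -0.014; Atp2b2 and Atp2b3 are forms largely of neurons. Between high and control these 3 differed by -0.010, -0.0087 and +0.019, and between low and control by +0.029, +0.0020 and +0.033.

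Atp2b4, the fourth plasma membrane pump, had both the highest difference and the widest spread of the list, and only 0.141% of tested genes had a larger SD within diets. Its lowest, median and highest values were 9.12, 9.22 and 9.83 log2 on the low diet, 9.21, 9.50 and 10.94 on the control diet and 9.40, 9.56 and 10.54 on the high diet. The highest value on each diet was that of rat 7, 17 or 19, which lay +0.59, +1.50 and +0.98 above the other rats of their diets. High differed from low by +0.35 (SE 0.17, a ratio of 1.28), with an unadjusted p of 0.0508 and an adjusted p of 0.680 in limma, and an exact permutation p of 0.0121. High differed from control by +0.056 and low from control by -0.30. All 9 rats on the high diet exceeded the low-diet mean, and 1 exceeded the highest low-diet value. Its promoter is shown for comparison with those of the release channels, with the same source and capitals. It held 6 CpG and a GC content of 44.7%, against medians of 34 and 72.7% over the promoters of the list. The annotated start of this stretch lies well inside the RefSeq span of the gene, chr13:47708157-47807389. It was the only start of Atp2b4 among the promoters searched.
Atp2b4, chr13:47758827-47759126, minus strand: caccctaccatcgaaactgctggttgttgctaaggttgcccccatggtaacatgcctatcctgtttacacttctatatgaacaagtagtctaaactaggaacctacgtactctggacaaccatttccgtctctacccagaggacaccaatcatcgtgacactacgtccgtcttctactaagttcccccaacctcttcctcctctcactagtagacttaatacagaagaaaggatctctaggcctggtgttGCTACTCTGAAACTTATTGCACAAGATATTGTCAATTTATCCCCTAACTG

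Without rats 7, 17 and 19 Atp2b4 was the 1 gene of the list that was called. Low-diet rats then had 9.12 to 9.46 log2, control rats 9.21 to 9.62 and high-diet rats 9.40 to 9.74, so that neighbouring diets still overlapped. The difference between high and low was +0.32 (SE 0.059, adjusted p = 0.0938 in limma), against 0.0589% of all tested genes called. High then differed from control by +0.11 (SE 0.057) and low from control by -0.20 (SE 0.059), and neither was called. In that fit 8 calcium genes had an unadjusted p under 0.05: Ryr1, Ryr3, Itpr1 and Itpr2 were lower, against 3.02% of all tested genes, and Cacna1g, Cacnb4, Atp2b4 and Slc8a3 were higher, against 5.09%. The omission of the 3 rats was chosen after the data were seen. With every value over 2 SD from its diet mean removed, as the study's design describes, Ryr3 (-0.15, adjusted p = 0.109) and Atp2b4 (+0.32, adjusted p = 0.0346) were called by limma between high and low, against 0.354% of all tested genes. The F-test then called Atp2b4, against 0.2%. Such removal shrinks the spread within diets by its construction.

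The sodium-calcium exchangers Slc8a1 and Slc8a2 differed by -0.013 and -0.035 between high and low, by +0.010 and -0.040 between high and control, and by +0.023 and -0.0053 between low and control. Slc8a3, the third exchanger, had lowest, median and highest values of 7.09, 7.27 and 7.45 log2 on the low diet, 7.08, 7.20 and 7.90 on the control diet and 7.11, 7.42 and 7.71 on the high diet. The ranges overlapped over most of their width, with 3 of 9 rats on the high diet above the highest low-diet value. High differed from low by +0.14 (SE 0.083, adjusted p = 0.764 in limma; exact permutation p = 0.0573) and from control by +0.10 (SE 0.081), and low differed from control by -0.035. The highest value on each diet was that of rat 7, 17 or 19. Without them high differed from low by +0.13 (SE 0.056) and from control by +0.14 (SE 0.054), and the difference between low and control turned to +0.014. With values over 2 SD removed, high minus control was +0.18 (SE 0.061, unadjusted p = 0.00725 in limma) and low minus control +0.039, and with array quality weights low minus control was +0.0017. The gene was not called in any of these fits.

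Mcu, the pore of the uniporter that carries calcium into mitochondria, had lowest, median and highest values of 8.08, 8.27 and 8.46 log2 on the low diet, 8.17, 8.34 and 8.39 on the control diet and 8.29, 8.34 and 8.61 on the high diet. The diets overlapped, and 2 of 9 rats on the high diet exceeded the highest low-diet value. High differed from low by +0.097 (SE 0.049, adjusted p = 0.692 in limma; exact permutation p = 0.122). High differed from control by +0.060 and low from control by -0.037, and with values over 2 SD removed high minus control was +0.013.

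Over the logarithm of the dose, 23 of 33 genes had a negative slope (69.7%, against 45% of all tested genes). The slope was steepest downwards in Ryr3, at -0.062 log2 per 10-fold dose, and steepest upwards in Atp2b4, at +0.17. The smallest adjusted p among the 33 trends was 0.641 in limma, and 4 genes (Ryr3, Cacna1g, Itpr2 and Itpr1) had an unadjusted p under 0.05, which was 12.1%, against 7.59% of all tested genes.

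A wider list of 75 other calcium genes, such as further channel subunits, calcium-binding proteins of the store and regulators of the release channels, had 44 tested genes. In limma 0 of them were called in any comparison. Between high and low 25 had a lower and 19 a higher mean (56.8% lower, against 44.8% of all tested genes), and 1 of 44 had an unadjusted p under 0.05, against 7.22% of all tested genes, so these counts do not set the list apart. That gene was Asph, whose products include junctin, a partner of ryanodine receptors, with a difference of -0.077 (SE 0.035, adjusted p = 0.680). Between high and control 1 gene, the potassium-dependent sodium-calcium exchanger Slc24a3, had an unadjusted p under 0.05, against 4.63% of all tested genes, with +0.063 (SE 0.031). Fkbp1a, which binds and stabilises release channels, had the next smallest F-test p, with -0.069 (SE 0.035) between high and control.

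Over all 26 rats, the calcium genes moved together from rat to rat within diets. After the diet means were removed, 528 pairs of the 33 genes were compared over 26 rats, and the median absolute Pearson r was 0.388, against 0.181 over all pairs of tested genes. A positive r was found in 69.3% of the 528 pairs, against 56% over all pairs of tested genes. Of the 528 pairs, 213 had an adjusted permutation p under 0.05, and 143 of these were positive. The share of all gene pairs with such a p was not computed. How far these values rest on the rats of lowest quality weight was not tested for the pairs as a set. The permutations treat cage mates as independent, and the smallest p they can give is 1e-05.

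**Figure D4:**
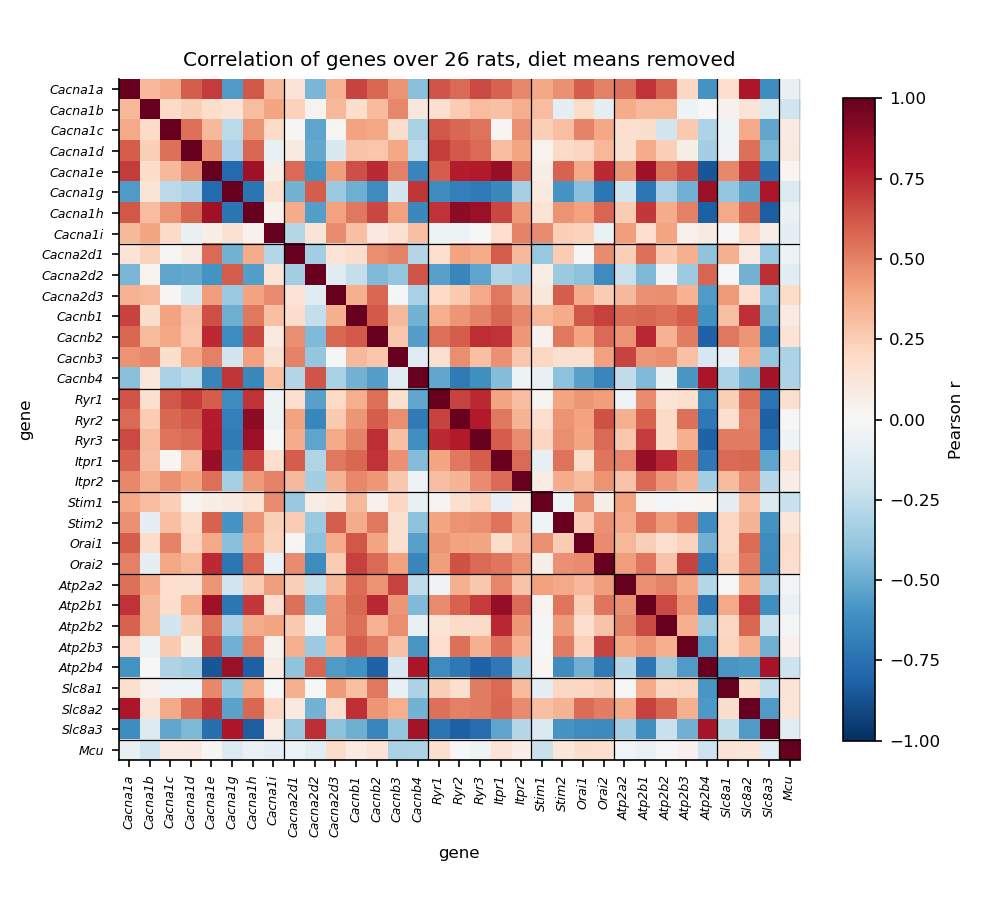
Pearson r of each pair of the 33 tested genes over 26 rats after removal of the diet means (colour, red positive and blue negative), with genes ordered by role on each axis and lines between roles. Cacna1g, Cacna2d2, Cacnb4, Atp2b4 and Slc8a3 form the blue rows, running against most other genes, as in Cacna1e with Atp2b4 at -0.858.

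Cacna1h and Ryr2 had the highest r, 0.897 (rho 0.764, adjusted permutation p = 0.000264 and 0.00226). It was 0.944 over the means of 14 cages, 0.800 without the 2 rats farthest from the median and 0.753 without rats 7, 17 and 19. Itpr1 and Atp2b1 had an r of 0.876 (rho 0.766, adjusted permutation p = 0.000264 and 0.00176), with 0.762 without the 2 farthest rats and 0.695 without the 3. Cacna1e and Itpr1 had 0.869 (rho 0.841, adjusted permutation p = 0.000264 and 0.00211), with 0.811 and 0.772 under the same omissions. These 3 relations held without the far rats. Cacna1g and Atp2b4 had 0.864 (rho 0.501, adjusted permutation p = 0.000264 and 0.0468), with 0.571 without the 2 farthest rats and 0.312 without the 3, so this relation rested largely on those rats. Cacna1e and Atp2b4 ran opposite, with -0.858 (rho -0.676, adjusted permutation p = 0.000264 and 0.00624), -0.678 and -0.539.

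Several of the genes also moved with markers of the tissue's regions. The mean of 8 markers of hippocampal fields lay between 10.84 and 11.02 log2 on the low diet, 10.68 and 11.04 on the control diet and 10.59 and 10.99 on the high diet, and 7 of the 8 had a lower mean on the high than on the low diet, with a median of -0.041. All 4 tested of 8 listed markers of the cerebral cortex bordering the hippocampus had a higher mean on the high than on the low diet, with a median of +0.11, and their mean level spanned 10.46 to 10.62 on the low, 10.42 to 10.65 on the control and 10.44 to 10.75 on the high diet. Thalamic markers, 3 tested of 8 listed, spanned 7.99 to 8.28, 8.06 to 8.43 and 8.04 to 8.54 on the same diets. Of the 3 thalamic markers 2 had a higher mean on the high than on the low diet. Slc17a6, the vesicular glutamate transporter of thalamic neurons, differed by +0.52 (SE 0.11). Ntng1 differed by +0.016 (SE 0.043) and Prkcd by -0.038 (SE 0.089), and no tested gene was called between high and low. All 4 tested of 7 listed markers of mural cells, the contractile cells of vessels, had a lower mean on the high than on the low diet, with a median of -0.054, and spanned 8.74 to 8.88 on the low, 8.78 to 8.91 on the control and 8.72 to 8.80 on the high diet. Of 8 endothelial markers, all tested, 7 had a lower mean on the high than on the low diet (median -0.061), 8 had a lower mean than on control (median -0.096), and their mean level spanned 8.11 to 8.24 on the low, 8.14 to 8.28 on the control and 8.08 to 8.22 on the high diet. Of 6 tested of 7 listed interneuron markers, 5 had a higher mean on the high than on the low diet (median +0.078), and they spanned 10.34 to 10.49, 10.39 to 10.59 and 10.44 to 10.61 on the same diets. The medians of the astrocyte, oligodendrocyte, microglia and neuron markers between high and low lay between -0.025 and +0.011. The part of these markers in the differences of the calcium genes was not tested.

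Itpr1 followed the hippocampal field markers most closely, with r = 0.803 over the 26 rats (rho 0.705; adjusted permutation p = 0.001 and 0.004 over 50 relations), 0.627 without the 2 farthest rats, 0.827 over cage means and 0.820 without rats 7, 17 and 19. It also followed the neuron markers, with r = 0.610 (adjusted permutation p = 0.0105), and 0.53 without the 2 farthest rats. Cacna1g had r = -0.713 with the hippocampal field markers (rho -0.411; adjusted permutation p = 0.008 and 0.188). This r was -0.289 without the 2 farthest rats and -0.45 without rats 7, 17 and 19, so its size rested largely on far rats. Cacnb4 had r = 0.667 with the thalamic markers (rho 0.492; adjusted permutation p = 0.00525 and 0.0841), and 0.424 without the 2 farthest rats. Itpr2 had r = 0.602 with the mural cell markers (rho 0.599, adjusted permutation p = 0.0121 and 0.0282). This r was 0.551 without the 2 farthest rats, 0.736 without the 3 and 0.467 over cage means (unadjusted permutation p = 0.0940). Ryr3 had r = 0.551 with the hippocampal field markers (rho 0.359; adjusted permutation p = 0.0328 and 0.255), and 0.0915 without the 2 farthest rats, so that relation too rested on them. With the thalamic markers Itpr1, Cacna1g and Ryr3 had r of -0.545, 0.549 and -0.534 (adjusted permutation p = 0.0321, 0.0321 and 0.0328). Without the 2 farthest rats these were -0.210, 0.0668 and -0.172. Among all tested genes, 0.707%, 2.3% and 9.31% had an r with the hippocampal field markers at least as strong as Itpr1, Cacna1g and Ryr3. The share was 1.33% for Cacnb4 with the thalamic and 0.530% for Itpr2 with the mural cell markers.

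Atp2b4 and Slc8a3 were compared in a second family of 40 relations added after the data were seen. Atp2b4 had r = -0.752 with the hippocampal field markers (rho -0.632, adjusted permutation p = 0.00693 and 0.00787). This r was -0.313 without the 2 farthest rats and -0.680 without rats 7, 17 and 19, so its size rested partly on the 2 farthest. With the thalamic markers Atp2b4 had r = 0.698 (adjusted permutation p = 0.0056), and 0.369 without the 2 farthest rats. With the neuron markers it had r = -0.539 (adjusted permutation p = 0.0268), and -0.449 without the 2 farthest. Slc8a3 had r = 0.750 with the thalamic markers (rho 0.694; adjusted permutation p = 0.0012 and 0.003), 0.573 without the 2 farthest rats and 0.602 without the 3. With the hippocampal field markers it had r = -0.639 (adjusted permutation p = 0.0147), and -0.233 without the 2 farthest rats. With the cortical markers it had r = 0.567 (adjusted permutation p = 0.0268), and 0.408 without the 2 farthest. With Slc17a6 alone, in a family of 18 relations, Slc8a3 had r = 0.743 (rho 0.722; adjusted permutation p = 0.00072 and 0.00036). Slc17a6 is 1 of the 3 thalamic markers, so this r is not separate from the one with their mean. Stim1 and Mcu had no relation to a marker list with an adjusted permutation p under 0.05. Among all tested genes, 1.39% had an r with the hippocampal field markers at least as strong as Atp2b4. For Slc8a3 with the thalamic markers the share was 0.200%.

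**Figure D5:**
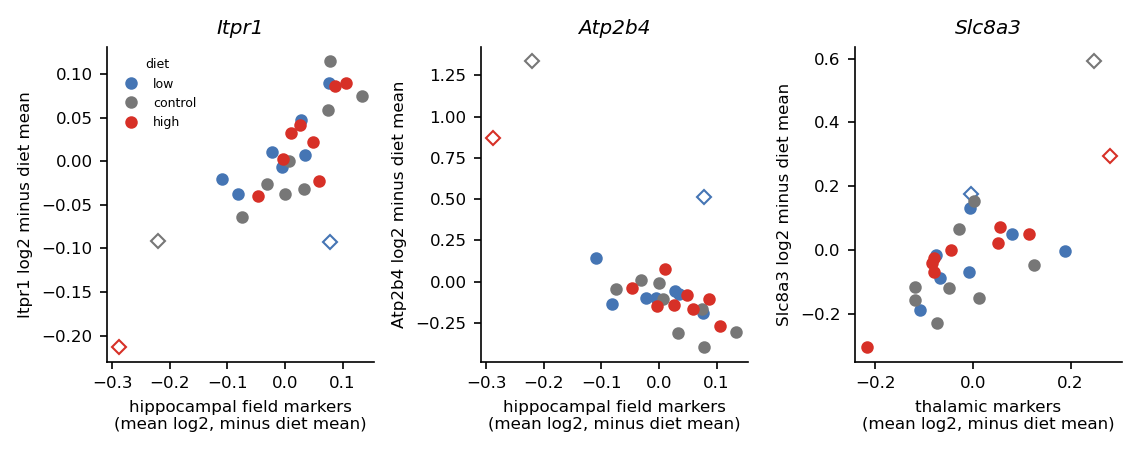
Log2 intensity of Itpr1, Atp2b4 and Slc8a3 in each rat (vertical axes) against the mean log2 intensity of hippocampal field or thalamic markers (horizontal axes), all minus the diet mean; colours are the diets and open diamonds are rats 7, 17 and 19. Itpr1 climbs with the hippocampal field markers (r = 0.803), Atp2b4 runs against them (r = -0.752), and Slc8a3 climbs with the thalamic markers (r = 0.750). Without the 2 farthest rats these were 0.627, -0.313 and 0.573.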

How the data were processed

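Hippocampal RNA of 26 rats on 3 diets was measured on Rat Gene 1.0 ST arrays. The deposited table holds log2 values of 29214 probe sets made by the authors. Partek 6.6 and GCRMA are named in the submitters' processing notes, with no role given. The array annotation gave 15310 probe sets 1 gene symbol, 323 several and 13581 none, and only the first kind was named. All 35 genes were matched to RefSeq (GRCr8) by gene ID. For each gene the probe set of highest mean was used, and genes with a mean under 6.94 were left out of the tests. No further normalization was made, and the number of arrays and their quality limit the precision.

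Linear models with diet as a factor over all 26 arrays were fitted in R 4.3.3 by limma 3.58.1, and correlations and promoter searches were made in Python 3.11.15. P values are 2-sided, adjusted after Benjamini-Hochberg across the 8485 tested genes, and called at 0.17, with 0.05 and 0.31 as alternatives. The whole table was fitted in every setting. The procedure was tested on simulated data.

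Correlations used values without diet means and 1e+05 permutations. Described in full were genes with an unadjusted p under 0.05 and the gene of smallest F-test p in each class, the 5 pairs of highest absolute r, and 3 genes of the wider list. The genes, classes, marker lists and tests were chosen with earlier results of these data known. Alternatives were other filters, single probe sets, cage as a random block, quantile normalization, array medians set equal (centring), array weights, a robust prior, only the diets compared, tail mark, removal of values over 2 SD, no moderation, other thresholds, a dose trend, exact permutation and each rat left out. The consensus correlation of cage mates was 0.136, and its median over the calcium genes was 0.0649. The labels do not pair rats across diets.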

Additional observations from a re-analysis of the deposited data

Results flagged for a closer look

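In 13 of 105 groups of rats (35 genes on 3 diets), 1 rat lay far from the others by Dixon's test at the 95% level, which chance does in about 1 in 20 groups. That rate is for independent groups, whereas these genes vary together over the same rats. The share over all genes was not computed. All 13 far values came from rats 7, 17 and 19. In these rats 8.97%, 10.85% and 8.25% of all tested genes lay over 3 SD from the other rats of their diet.

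Control rat 17 gave 9 of them. It was highest of its diet for Atp2b4 at 10.943 log2 (the others had at most 9.62), for Cacna1g at 9.3543 (8.95), for Cacnb4 at 11.222 (11.01) and for Slc8a3 at 7.9043. It was lowest for Cacna1e at 11.635 (the others had at least 11.75), for Cacnb2 at 10.466 (10.61), for Ryr2 at 11.407 (11.55), for Ryr3 at 9.7078 (9.94) and for Orai2 at 10.481 (10.75).

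High-diet rat 19 was highest for Atp2b4 at 10.535 (the others had at most 9.74) and lowest for Itpr1 at 11.204 (11.38) and Atp2b1 at 12.434 (12.68). Low-diet rat 7 was lowest for Cacna1h at 9.9988 (10.10).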

How the results depend on the processing

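Of the 33 genes, none was called in limma under the alternatives tried, except in the high against low contrast without rats 7, 17 and 19 (1, Atp2b4) and with values over 2 SD removed (2 in that contrast and 1 in the F-test; Atp2b4 at +0.32 and Ryr3 at -0.15). The difference with the smallest p of each of the 9 genes described in full kept its direction. Other differences close to 0 changed sign, as the report gives for Slc8a3, Cacnb4 and Stim1.

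Counts at an unadjusted p under 0.05 moved more, and the shares of all tested genes moved as well; these shares stand in parentheses. In the F-test, where all arrays gave 1 (4.62%), the count was 0 after centring (5.3%), with cage as a random block (3.01%) and without moderation (4.43%). It was 2 with the tail mark (4.73%), 3 with array weights (6.58%), 4 without the 3 rats (5.4%) and 6 with values over 2 SD removed (8.5%). The dose trend, a test in place of the F-test, gave 4 (7.59%). Between high and low, where all arrays gave 4 (7.22%), it was 3 with cage as a random block (5.27%), 7 with only those diets fitted (6.91%), 7 with values over 2 SD removed (10.4%), 8 with array weights (9.51%) and 8 without the 3 rats (8.11%). Between high and control it was 2 with array weights (6.72%), without the 3 rats (5.44%) and with values over 2 SD removed (7.84%). Between low and control it was 0 with only those diets fitted (1.91%) and 2 after centring (2.16%), with the tail mark (2.32%), without moderation (2.37%) and without the 3 rats (2.64%). The count of lower means between high and control was 13 after centring, and their median +0.0040. The cause of these moves was not tested.

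With 1 rat left out, 0 to 5 genes had an unadjusted p under 0.05 in the F-test (3.82% to 5.85% of all tested genes). Between high and low the count was 1 to 9 (5.99% to 9.12%), and between high and control 0 to 2 (3.68% to 5.96%). Between low and control it was 0 to 2 (1.9% to 2.93%). The count between high and low was 7 without rat 7, 8 without rat 17, 2 without rat 18, 1 without rat 19, 7 without rat 22 and 9 without rat 25. Lower means numbered 22 to 26 between high and low, 16 to 24 between high and control and 9 to 15 between low and control. The medians ranged over -0.033 to -0.0082, -0.020 to +0.00032 and +0.0039 to +0.021 log2 in the same order of contrasts. Adjusted p values over all alternatives lay between 0.0346 and 0.895 for Atp2b4, 0.109 and 0.895 for Ryr3 and 0.309 and 0.895 for Cacna1g. Signal over background was not in the deposited table used here.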
